A study of Homo sapiens with 6 samples.

Results

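The genes described here are 10 chemokine ligands of epithelial tumour cells, read by name in RNA-seq of the colorectal cancer line SW620, long established in culture. They are CXCL1, CXCL2, CXCL3, CXCL5, CXCL6, CXCL8, CXCL10, CXCL14, CXCL16 and CCL20, and they were chosen from the 39554 gene IDs of the count table with results of this comparison already known, among them the higher values of CXCL1, CXCL3 and CXCL8. Of the 10 genes, 9 had counts, and CXCL14 had 0 counts in all 6 libraries. Cells were transfected with an siRNA against SOWAHA (siSOWAHA, 3 libraries, genotype label SOWAHA knockdown) or with a control siRNA (siNC, 3 libraries, genotype label WT), and poly(A) RNA was taken 72 h later. Both groups thus carried an siRNA and the same transfection reagent, the labels give no siRNA sequence, and the treatment label is the same for both groups. The labels do not say that a group's replicates are separate cultures. P-values therefore measure only library-to-library spread, possibly technical. The series asks how SOWAHA, described there as a cancer suppressor, bears on metabolism. The chemokines are a readout of the same RNA.

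Chemokines are small secreted proteins that guide leukocytes through G protein-coupled receptors. CXCL1, CXCL2, CXCL3, CXCL5, CXCL6 and CXCL8 carry the amino acid motif ELR before their CXC cysteines, bind CXCR2 (CXCL6 and CXCL8 also CXCR1) and attract neutrophils. Their genes lie in a cluster on chromosome 4 and are classical targets of NF-kB in epithelial cells answering to IL-1, TNF or bacterial products. CXCL10 is an interferon-induced ligand of CXCR3, CXCL16 is a membrane-anchored ligand of CXCR6, CXCL14 is a chemokine of resting epithelia, and CCL20 draws CCR6-bearing lymphocytes and dendritic cells to the gut epithelium.

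The promoters are shown because most of these genes share a short sequence there, whether or not they differed between the groups. RefSeq (GRCh38.p14) gave a promoter for 9 of the 10 genes, all but CXCL16, and the 200 bases before the start are printed 5′ to 3′ on the gene's strand for 5 of them, namely CXCL1 (chr4:73869193-73869392, plus strand), CXCL6 (chr4:73836478-73836677, plus strand), CXCL8 (chr4:73740369-73740568, plus strand), CXCL2 (chr4:74099196-74099395, minus strand) and CCL20 (chr2:227813642-227813841, plus strand). Capitals mark matches to the NF-kB consensus or to GGAATTTCC, searched on both strands.
CXCL1: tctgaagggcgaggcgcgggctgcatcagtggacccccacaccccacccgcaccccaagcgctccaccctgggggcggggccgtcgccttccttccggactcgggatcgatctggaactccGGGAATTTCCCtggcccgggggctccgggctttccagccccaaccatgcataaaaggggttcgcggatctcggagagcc
CXCL6: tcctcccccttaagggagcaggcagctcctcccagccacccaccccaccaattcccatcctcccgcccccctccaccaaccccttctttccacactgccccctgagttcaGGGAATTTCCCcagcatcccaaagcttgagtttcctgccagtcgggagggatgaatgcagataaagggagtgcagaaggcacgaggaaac
CXCL8: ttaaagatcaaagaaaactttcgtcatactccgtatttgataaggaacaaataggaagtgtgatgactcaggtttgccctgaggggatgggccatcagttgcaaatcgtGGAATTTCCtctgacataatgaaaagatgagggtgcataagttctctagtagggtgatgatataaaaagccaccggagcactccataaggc
CXCL2: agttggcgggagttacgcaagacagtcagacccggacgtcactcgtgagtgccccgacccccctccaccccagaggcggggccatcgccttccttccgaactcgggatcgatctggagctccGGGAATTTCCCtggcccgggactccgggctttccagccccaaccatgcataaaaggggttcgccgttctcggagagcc
CCL20: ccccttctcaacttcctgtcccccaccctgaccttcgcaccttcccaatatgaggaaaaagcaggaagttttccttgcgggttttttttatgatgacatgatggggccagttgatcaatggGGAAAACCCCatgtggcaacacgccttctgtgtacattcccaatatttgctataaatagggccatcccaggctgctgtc
The 9 bases GGAATTTCC, or their reverse complement, were in the promoter windows (250 bases before to 50 after the start) of 7 of these 9 genes, and in 0.438% of the 13233 tested genes with a window (the first listed start of each). They lay at 78 to 70 bases before the start in CXCL1 and CXCL3, at 77 to 69 in CXCL2, at 90 to 82 in CXCL5, at 89 to 81 in CXCL6 and at 91 to 83 in CXCL8. In CXCL10 the reverse complement stood farther out, at 176 to 168 bases before the start. The 10-base NF-kB consensus, which overlaps GGAATTTCC wherever a G precedes or a C follows it, was in 7 of the 9 windows and in 12.9% of windows of tested genes. CCL20 matched the consensus without GGAATTTCC, and CXCL8 matched GGAATTTCC without the consensus. CXCL14 had neither. The AP-1 motif TGANTCA was in CXCL8 and CXCL14 (5.15% of windows of tested genes), the core of the interferon-stimulated response element in CXCL10 (2.89%), and TATAAA, searched on the gene's strand, in CXCL8 and CCL20 (4.13%). A match describes these letters in the window and says nothing on binding.

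Library totals were 49937395 to 55082095 counts in siSOWAHA cells and 53281242 to 59474396 counts in siNC cells. SOWAHA itself averaged 7.78 ± 1.08 CPM in siSOWAHA libraries and 35.2 ± 3.72 CPM in siNC libraries (SD, n = 3 each; CPM are counts scaled to library size with TMM factors). Of 12 colorectal epithelial markers, CDX1 was at 0 and 11 had counts. In the edgeR test 0 of the 11 rose and 5 fell, beside 9.12% and 7.77% of all genes tested. Those 5 were CDH17 (log2 fold change -0.59), CDX2 (-0.44), KRT19 (-0.30), CDH1 (-0.13) and KRT8 (-0.12). EPCAM, at 398 ± 2.15 CPM in siSOWAHA and 398 ± 5.54 CPM in siNC cells, did not pass. The 12 markers summed to 8884 to 8993 CPM in siSOWAHA and 9524 to 9829 CPM in siNC cells. Of 16 leukocyte and neutrophil markers, 10 were at 0 in all libraries, among them PTPRC, CSF3R, FCGR3B and ELANE. The summed level of all 16 was 5.98 to 7.80 CPM in siSOWAHA and 7.36 to 7.88 CPM in siNC cells. Most of that was CD68, at 5.41 ± 0.734 and 5.22 ± 0.486 CPM. CD14, at 0.756 ± 0.475 and 1.295 ± 0.146 CPM, was below siNC in every siSOWAHA library. ITGB2 averaged 0.231 ± 0.2105 and 0.858 ± 0.519 CPM, and CSF1R 0.232 ± 0.134 and 0.184 ± 0.165 CPM. Of these 4 tested markers 0 rose and 0 fell, beside 9.12% and 7.77% of all genes. The 13 fibroblast and endothelial markers summed to 82.9 to 95.1 CPM in siSOWAHA and 72.2 to 78.7 CPM in siNC cells. Most of it was LUM at 76.4 ± 5.15 and 61.1 ± 2.19 CPM. LUM was the 1 of 7 tested that rose, and 0 fell, beside 9.12% and 7.77% of all genes. COL1A1, at 6.965 ± 1.17 CPM in siSOWAHA and 9.175 ± 0.703 CPM in siNC cells, and PDGFRB, at 1.55 ± 0.245 and 2.13 ± 0.116 CPM, were below siNC in every siSOWAHA library but did not pass. CDH5 was at 0, and COL3A1, DCN, PDGFRA, FAP and KDR were too low to test. The part of these markers in the results below was not tested. In bulk RNA, more cells making a chemokine and more RNA per cell cannot be told apart.

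Among the neutrophil-attracting chemokines, CXCL1, CXCL3, CXCL6 and CXCL8 were each about 1.8 to 1.9-fold higher in siSOWAHA cells, with tight replicates, while CXCL5 and CXCL2 differed less or varied more. CXCL8, interleukin-8, was at 46.6, 49.5 and 47.2 CPM in siSOWAHA libraries, against 24.6, 29.1 and 25.6 CPM in siNC libraries. Its groups lay far apart, with a log2 fold change of 0.85 (SE 0.067), a fold of 1.81. CXCL1, first described as a melanoma growth-stimulating factor, was at 35.2, 36.7 and 37.2 CPM in siSOWAHA libraries, against 20.2, 19.7 and 20.0 CPM in siNC libraries. Its libraries lay close together within each group, and the log2 fold change was 0.86 (SE 0.063). CXCL3, a close relative of CXCL1, was at 17.9, 16.4 and 15.8 CPM in siSOWAHA libraries, against 7.74, 9.39 and 9.34 CPM in siNC libraries. It had the largest log2 fold change of the 9 genes with counts, 0.92 (SE 0.103), and siNC replicate 1 was its lowest library. CXCL6, granulocyte chemotactic protein, was at 15.0, 15.6 and 14.9 CPM in siSOWAHA libraries, against 8.41, 8.25 and 8.75 CPM in siNC libraries. Its groups did not overlap either, and the log2 fold change was 0.84 (SE 0.094).

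CXCL5, the closest relative of CXCL6, was at 2.48, 2.21 and 3.22 CPM in siSOWAHA libraries, against 1.55, 1.56 and 2.12 CPM in siNC libraries. The lowest siSOWAHA library lay just above the highest siNC library, and the log2 fold change of 0.60 had an SE of 0.23. CXCL2 was at 3.82, 4.23 and 3.30 CPM in siSOWAHA libraries, against 3.06, 3.49 and 3.61 CPM in siNC libraries. Its groups overlapped, with siSOWAHA replicate 3 below the highest siNC libraries, and the log2 fold change was 0.16 (SE 0.175). CXCL1, CXCL2 and CXCL3 are near copies, and reads from one can be counted for another. In the longest GENCODE 29 coding transcripts, aligned bases were 90.5% identical between CXCL1 and CXCL2, 81.7% between CXCL1 and CXCL3 and 83.3% between CXCL2 and CXCL3. Exact matches were short. Of the 1048 windows of 50 nt in the CXCL1 transcript, 60 occurred in that of CXCL2 and 6 in that of CXCL3, and 0 of its 998 windows of 100 nt occurred in either. How the authors counted shared reads is not stated in the labels.

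The remaining chemokines showed smaller or unclear differences. CCL20, the CCR6 ligand, was at 75.7, 82.5 and 83.5 CPM in siSOWAHA libraries, against 64.3, 59.5 and 64.7 CPM in siNC libraries. All siSOWAHA libraries were above all siNC libraries, with a log2 fold change of 0.36 (SE 0.051), a fold of 1.28. CXCL16 was at 6.76, 7.18 and 7.94 CPM in siSOWAHA libraries, against 6.595, 5.375 and 6.68 CPM in siNC libraries. The groups almost touched, and the log2 fold change was 0.23 (SE 0.137). CXCL10 was rare, with 20, 22 and 8 counts in siSOWAHA libraries, against 35, 28 and 14 counts in siNC libraries. Those counts overlapped, and the log2 fold change of -0.51 had an SE of 0.59. For CXCL14, 0 counts allow a level of up to 0.0545 to 0.0601 CPM in siSOWAHA libraries and up to 0.0504 to 0.0563 CPM in siNC libraries, taking 3 counts as the limit for counting error.

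In the edgeR quasi-likelihood test across all genes (Benjamini-Hochberg adjusted p under 0.05), 5 of the 9 measured chemokines passed as higher, CXCL1, CXCL3, CXCL6, CXCL8 and CCL20, and 0 as lower. Of all 17693 genes tested, 9.12% passed as higher and 7.77% as lower. For 7 of the 9, every siSOWAHA library was above every siNC library in CPM, as for 16.7% of all genes tested. The median log2 fold change was 0.60 over the 9 and -0.0078 over all genes tested. The genes were chosen with this comparison known, so these counts describe them and support nothing further. The 4 that did not pass were CXCL2, CXCL5, CXCL10 and CXCL16, and CXCL2, CXCL5 and CXCL10 were the 3 rarest in CPM. A miss of the threshold does not show that they were unchanged.

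**Figure D1:**
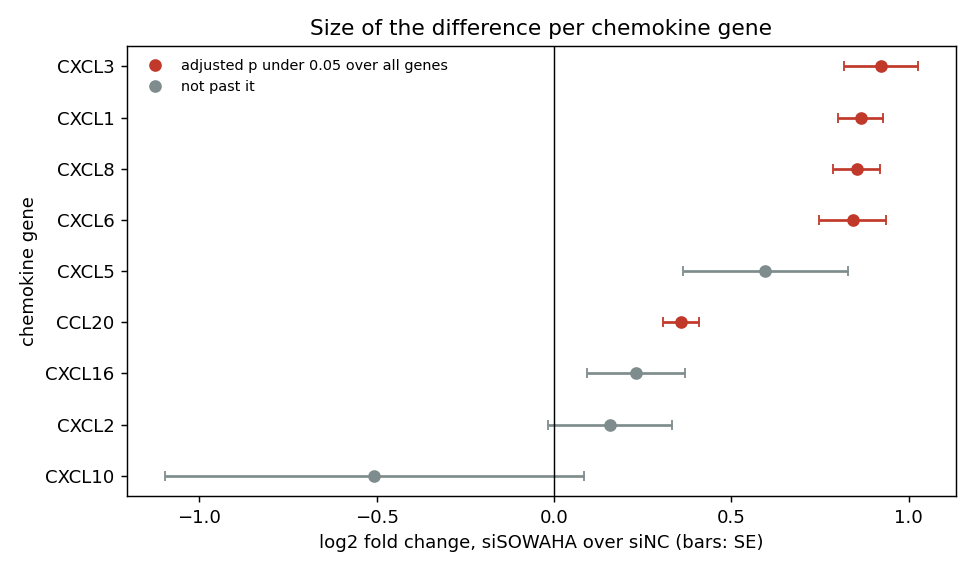
Log2 fold change of siSOWAHA over siNC (x axis) for the 9 chemokine genes with counts (y axis), from the edgeR fit on 3 libraries per group, with bars for the SE. CXCL3, CXCL1, CXCL8 and CXCL6 sit together between 0.84 and 0.92, CCL20 at 0.36 has the shortest bar, and the bars of CXCL10, the longest, and CXCL2 cross 0.

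Levels were compared between genes in the authors' FPKM values, which are per length of gene. CCL20 had the highest level at 88.8 ± 4.26 FPKM in siSOWAHA and 70.1 ± 3.36 FPKM in siNC cells (SD, n = 3 each, as for all levels here), within the 96.3 to 97.5 percentile of all genes with an FPKM above 0. CXCL1 came next with 28.0 ± 0.675 FPKM in siSOWAHA and 15.5 ± 0.218 FPKM in siNC cells. Then followed CXCL8 with 21.35 ± 0.555 and 11.95 ± 1.06 FPKM, CXCL3 with 14.3 ± 0.984 and 7.64 ± 0.833 FPKM and CXCL6 with 9.08 ± 0.181 and 5.12 ± 0.173 FPKM, in siSOWAHA and siNC cells each time. CXCL2 stood at 3.11 ± 0.372 FPKM in siSOWAHA and 2.82 ± 0.251 FPKM in siNC cells, and CXCL16 at 2.79 ± 0.227 and 2.40 ± 0.284 FPKM. CXCL5 had 0.993 ± 0.198 FPKM in siSOWAHA and 0.663 ± 0.130 FPKM in siNC cells, and CXCL10 had 0.240 ± 0.109 and 0.354 ± 0.158 FPKM. The order of the means was the same in both groups. CXCL2 and CXCL16 were the one pair of neighbours whose libraries overlapped, in both groups.

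**Figure D2:**
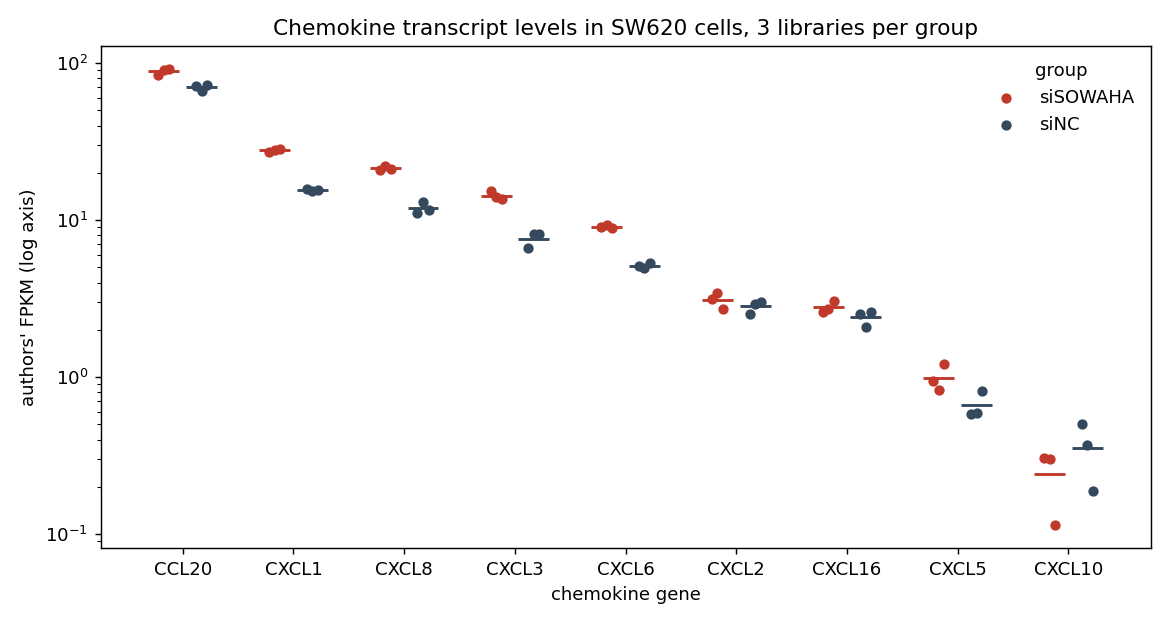
Authors' FPKM on a log axis (y) for the 9 chemokine genes with counts (x), ordered by their siNC level, with siSOWAHA libraries (red) left of siNC libraries (dark) and a bar at each mean of 3 libraries. The red points of CCL20, CXCL1, CXCL8, CXCL3 and CXCL6 are all above the dark ones, those of CXCL2 and CXCL10 mix with them, and the order of the means is the same in both groups.

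The summed FPKM of the 9 genes was 163.7, 171.0 and 171.3 in siSOWAHA libraries, against 116.2, 113.7 and 119.7 in siNC libraries. CCL20 alone made up 51.3%, 52.9% and 53.7% of that sum in siSOWAHA libraries and 61.6%, 58.3% and 60.5% in siNC libraries. The 6 neutrophil-attracting CXC genes made up 46.9%, 45.4% and 44.4% in siSOWAHA libraries, against 35.8%, 39.6% and 37.2% in siNC libraries. Neither share overlapped between the groups, and both follow from the values that chose the genes. The sum of these 6 genes was 76.8 ± 0.752 FPKM in siSOWAHA and 43.7 ± 1.82 FPKM in siNC cells.

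The 6 neutrophil-attracting genes lie within 358.6 kb of chromosome 4, from CXCL8 (73740569 to 73743716, plus strand) through CXCL6 (73836678 to 73838760, plus), CXCL1 (73869393 to 73871308, plus), CXCL5 (73995642 to 73998677, minus) and CXCL3 (74036589 to 74038689, minus) to CXCL2 (74097040 to 74099195, minus), in GRCh38 coordinates of the deposited table. Within 500 kb on either side of this stretch RefSeq lists 12 other protein-coding genes, of which 5 were tested, a window chosen with the comparison known. Of these 5, 2 rose and 0 fell in edgeR, beside 9.12% and 7.77% of all genes tested. RASSF6, a Ras association domain gene next to CXCL8, rose, with 98.5, 103.6 and 119.9 CPM in siSOWAHA libraries, against 69.3, 68.8 and 66.1 CPM in siNC libraries (log2 fold change 0.66, SE 0.061, edgeR adjusted p = 2.91e-06). ANKRD17, an ankyrin repeat gene farther out, rose by less, with 270.3 CPM on average in siSOWAHA and 234 CPM in siNC cells (log2 fold change 0.21, edgeR adjusted p = 0.000184). MTHFD2L, a mitochondrial folate enzyme gene next to CXCL2, did not pass (log2 fold change 0.07, SE 0.081), nor did the EGF-family ligand genes EREG (0.81, SE 0.41) and AREG (0.39, SE 0.26), both under 2 CPM on average in each group. The platelet chemokine genes PF4, PF4V1 and PPBP inside the cluster had 0 counts in all libraries. CXCL10, also on chromosome 4 but outside the cluster (76021118 to 76023497, minus), CXCL16 on chromosome 17 (4733533 to 4739928, minus) and CCL20 on chromosome 2 (227813842 to 227817556, plus) lie elsewhere.

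**Figure D3:**
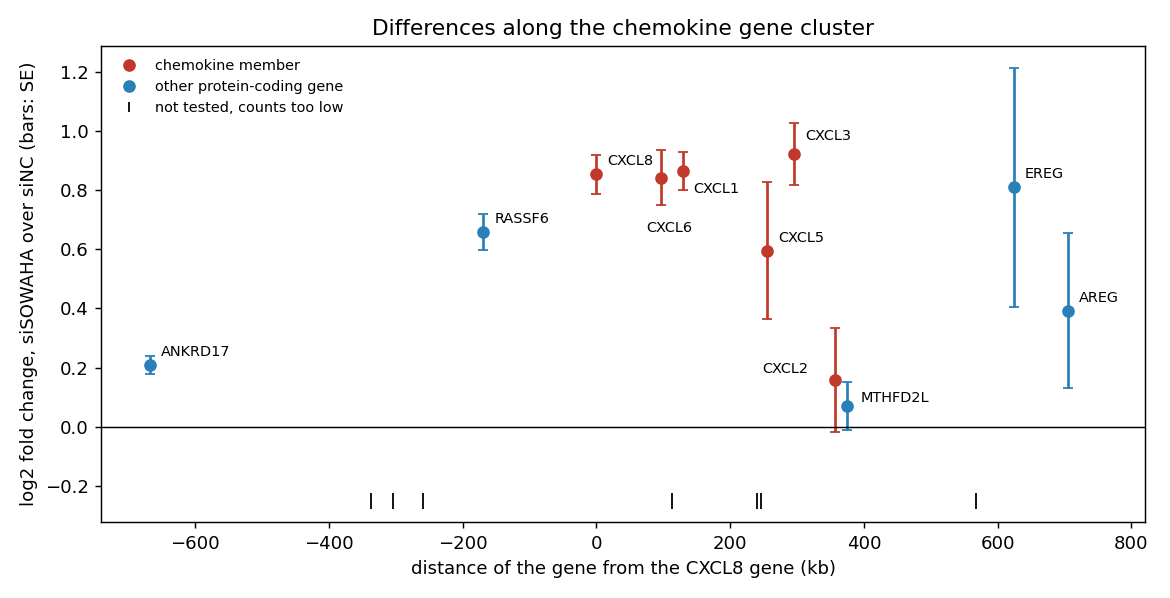
Log2 fold change of siSOWAHA over siNC (y axis, bars for the SE) against the distance of each protein-coding gene's lower coordinate from that of CXCL8 in kb (x axis), with the chemokine genes in red, other tested genes in blue and untested genes as ticks. CXCL8, CXCL6, CXCL1 and CXCL3 are at 0.84 to 0.92, RASSF6 on their left is at 0.66, and CXCL2 and MTHFD2L on the right are at 0.16 and 0.07.

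Most of the chemokine transcripts also carry a repeated short sequence in the 3′ UTR, where AU-rich elements are bound by factors that speed or slow mRNA decay. In GENCODE 29, taking each gene's longest 3′ UTR on the transcript strand, the pentamer ATTTA occurred 11 times in CXCL5, 10 times in CXCL2, 9 times in CXCL8, 7 times in CXCL3, 6 times in CXCL6, 5 times in CXCL1, 3 times in CCL20 and 1 time each in CXCL10, CXCL14 and CXCL16. Per kb of 3′ UTR, which is longest in CXCL5, this was 13.9 in CXCL2, 10.4 in CXCL3, 7.08 in CXCL1 and 7.19 in CXCL8, against a median of 1.58 over 13684 tested genes with a 3′ UTR of at least 50 nt. CCL20, CXCL5 and CXCL6 had 6.24, 5.51 and 5.36 per kb, and CXCL10, CXCL16 and CXCL14 had 1.23, 1.02 and 0.852 per kb. The stricter nonamer TTATTTATT, which contains ATTTA, was in 4 of the 10 genes, 5 times in CXCL2, 3 times in CXCL1 and 1 time each in CXCL3 and CXCL8, and in 8.92% of the tested genes. CXCL2, with the most ATTTA per kb and the most nonamers of the 10, was not among the genes that passed. It was also among the rarest in CPM, and a miss of the threshold does not show that it was unchanged. The part of these motifs in the differences was not tested.

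The pathway around these chemokines was read from lists that hold none of them. Of 32 tested NF-kB subunits, inhibitors and kinases, 12 rose and 0 fell, beside 9.12% and 7.77% of all genes. With upper-quartile factors 9 rose and 1 fell, beside 1328 and 1558 of all 17693 genes. With library totals alone 9 rose and 1 fell, beside 1323 and 1561 of them. At an unadjusted edgeR p under 0.05, 15 were higher and 1 was lower. The shares of all genes at an unadjusted p are not given here and cannot be smaller than the adjusted ones. The unadjusted counts of this list and those below therefore cannot be set against 9.12% and 7.77%. The median log2 fold change of the 32 NF-kB genes was 0.13. NFKBIA, the feedback inhibitor IkB-alpha, was at 46.6, 50.1 and 47.6 CPM in siSOWAHA libraries, against 33.35, 37.2 and 34.4 CPM in siNC libraries (log2 fold change 0.46, SE 0.058, edgeR adjusted p = 5.53e-05). TRAF3, a signalling adaptor that restrains the non-canonical branch, rose by 0.38 (adjusted p = 6.3e-05), the inhibitor NFKBIB by 0.31 (adjusted p = 0.00156) and the p105/p50 subunit gene NFKB1 by 0.24 (adjusted p = 0.00418) on the log2 scale. The kinase adaptor TAB2 (-0.08, SE 0.043) and TNFAIP2 (0.01, SE 0.044), a TNF-induced gene whose sign flipped with library totals alone, did not pass. The number of the NF-kB list that rose was 6 without siNC replicate 1 or siSOWAHA replicate 3 and 7 without siNC replicate 3. It was 8 without siSOWAHA replicate 1, 9 without siNC replicate 2 and 10 without siSOWAHA replicate 2. All genes called higher then numbered 1075 to 1453, of 18083 to 18244 tested, against 1614 of 17693 with all 6 libraries. NFKBIB has a copy on an alternate scaffold, so its count is uncertain.

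Other tested genes with GGAATTTCC in the promoter window were counted beside the chemokines. Of 51 such genes, 8 rose (15.7%) and 3 fell (5.88%), beside 10.1% and 8.08% of all 13233 tested genes with a window, and their median log2 fold change was -0.0185. NFKBIA, NFKB1 and REL, the c-Rel subunit gene (log2 fold change 0.35), were among the 8, and COL7A1, DHRS7B and PLLP were the 3 that fell, all named after their values were seen.

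Of 32 tested cytokines, receptors and adaptors that induce chemokines, 5 rose and 3 fell, beside 9.12% and 7.77% of all genes. At an unadjusted edgeR p under 0.05, 6 were higher and 6 lower. The number that rose was 1 without siSOWAHA replicate 3, 2 without siNC replicate 2 or 3, and 3 without siNC replicate 1 or siSOWAHA replicate 2. It was 5 without siSOWAHA replicate 1, and all genes called higher numbered 1075 to 1453 with a library left out. LTB, the membrane anchor of lymphotoxin, was at 4.28, 4.14 and 3.635 CPM in siSOWAHA libraries, against 2.19, 1.46 and 1.42 CPM in siNC libraries (log2 fold change 1.25, SE 0.214, edgeR adjusted p = 0.000825), with copies on alternate scaffolds. CSF3, the granulocyte colony-stimulating factor that drives neutrophil production, averaged 2.53 ± 0.362 CPM in siSOWAHA and 1.27 ± 0.387 CPM in siNC cells (log2 fold change 0.99, adjusted p = 0.0176), a call lost without siNC replicate 2 (adjusted p = 0.0735) or siSOWAHA replicate 3 (0.0786). TNFRSF1B, a TNF receptor, fell by 0.22 (adjusted p = 0.0012) and IRAK4, the kinase downstream of IL-1 and Toll-like receptors, by 0.36 (adjusted p = 0.00214) on the log2 scale. The death ligand and receptor genes TNFSF10, TNFRSF10A and TNFRSF10B rose and TNFSF15 fell, named after their values were seen. The abundant IRAK1 (0.04, SE 0.032) and LTBR (-0.08, SE 0.047) did not pass. The inflammatory cytokine genes IL1B, IL6 and IL17A were at 0 in all libraries, and TNF averaged 0.645 ± 0.148 CPM in siSOWAHA and 0.557 ± 0.346 CPM in siNC cells, a count made uncertain by copies on alternate scaffolds.

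Of 15 tested AP-1 and C/EBP factors, which act beside NF-kB on chemokine promoters, 0 rose and 3 fell, beside 9.12% and 7.77% of all genes, with 3 higher and 4 lower at an unadjusted edgeR p under 0.05. FOSL2 averaged 22.4 ± 1.55 CPM in siSOWAHA and 32.9 ± 1.57 CPM in siNC cells (log2 fold change -0.55, edgeR adjusted p = 7.4e-05), FOSL1 fell by 0.33 (adjusted p = 0.000678) and CEBPA by 0.69 (adjusted p = 0.00162) on the log2 scale. JUN, the most abundant of them, and CEBPG did not pass (0.06, SE 0.045, and -0.08, SE 0.045). Of 15 chemokine mRNA decay factors, 3 rose and 0 fell, beside 9.12% and 7.77% of all genes, with 6 higher and 1 lower at an unadjusted p under 0.05. ZFP36L1, which binds AU-rich elements and promotes decay, averaged 94.3 ± 4.33 CPM in siSOWAHA and 72.3 ± 5.87 CPM in siNC cells (log2 fold change 0.38, adjusted p = 0.000233). ZC3H12A, the endonuclease Regnase-1, rose by 0.25 (adjusted p = 0.0186), a call lost without siNC replicate 2 (adjusted p = 0.0837) or siSOWAHA replicate 3 (0.0701). In FPKM with no filter the ZC3H12A call was lost too (limma adjusted p = 0.0815). TIAL1, a translational regulator, rose by 0.13 (adjusted p = 0.0377), lost without any library but siNC replicate 3 (adjusted p up to 0.146). The TIAL1 call was also lost with upper-quartile factors (edgeR adjusted p = 0.0695), with library totals alone (0.0751) and in all FPKM alternatives (limma adjusted p 0.0899 to 0.131). CNOT1, the scaffold of the deadenylase complex (0.02, SE 0.027), and HNRNPD, the AU-rich element binder AUF1 (0.01, SE 0.029, with a sign that flipped with library totals alone), did not pass.

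Of 13 tested genes listed for chemokine processing, enzymes and proteoglycans, 3 rose and 1 fell, beside 9.12% and 7.77% of all genes. At an unadjusted edgeR p under 0.05, 4 were higher and 1 was lower. ADAM10, the main sheddase of CXCL16, averaged 141 ± 10.1 CPM in siSOWAHA and 124 ± 1.82 CPM in siNC cells (log2 fold change 0.19, edgeR adjusted p = 0.0111), a call lost without siNC replicate 3 (adjusted p = 0.0521), siSOWAHA replicate 2 (0.0557) or siSOWAHA replicate 3 (0.0777). ADAM17, which also sheds cytokines and receptors, rose by 0.22 (adjusted p = 0.023), a call held among the left-out libraries only without siSOWAHA replicate 1, with adjusted p up to 0.121 without the others. In all FPKM alternatives the calls of ADAM10 (limma adjusted p 0.0654 to 0.142) and ADAM17 (0.0616 to 0.13) were lost too. The heparan sulfate proteoglycan SDC4 rose by 0.28 (adjusted p = 0.000499), and MMP14, a membrane-bound metalloprotease, fell by 0.58 (adjusted p = 0.000126) on the log2 scale. SDC1 (0.08, SE 0.034) and EXT2 (-0.0052, SE 0.039) did not pass.

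Of 38 other chemokine ligands, 22 were at 0 in all libraries and 7 were tested. Of these 7, 1 rose and 0 fell, beside 9.12% and 7.77% of all genes. CX3CL1, the membrane-anchored fractalkine, rose, with 17.9, 16.95 and 17.03 CPM in siSOWAHA libraries, against 11.3, 13.2 and 11.5 CPM in siNC libraries (log2 fold change 0.53, SE 0.09, edgeR adjusted p = 0.000806). CCL28, a mucosal chemokine (-0.07, SE 0.104), and XCL1 (-0.17, SE 0.137) did not pass, and the other 4 tested ligands did not either. Among those 4, the rare CCL15 (1.27, SE 0.50) was above siNC in every siSOWAHA library. CCL24 (-0.43, SE 0.171) was below siNC in every siSOWAHA library, both named after their values were seen. At an unadjusted edgeR p under 0.05, 2 of the 7 were higher and 1 lower. Of 7 tested chemokine receptors, 0 rose and 0 fell in edgeR, beside 9.12% and 7.77% of all genes. In DESeq2 or limma-voom 0 passed, and 0 had an unadjusted edgeR p under 0.05. CXCR1 had 0 counts in all libraries. CXCR2, the receptor of the neutrophil-attracting chemokines, had 0, 0 and 0 counts in siSOWAHA libraries and 0, 4 and 0 counts in siNC libraries. CXCR3 (log2 fold change -0.05, SE 0.34), CXCR6 (0.58, SE 0.58) and CCR6 (0.63, SE 0.60) were under 2 CPM on average and their groups overlapped. GPR35, a receptor described as binding CXCL17, was the most abundant of the list at 28.99 ± 0.738 CPM in siSOWAHA and 31.3 ± 0.461 CPM in siNC cells (log2 fold change -0.11, SE 0.061).

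**Figure D4:**
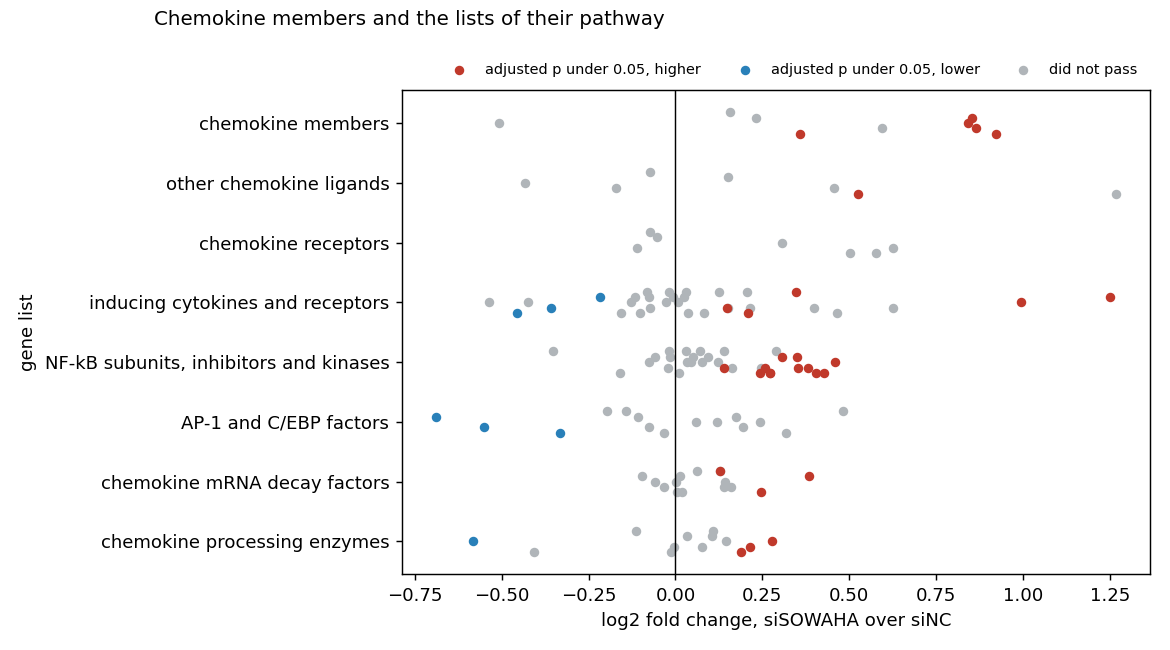
Log2 fold change of siSOWAHA over siNC (x axis) for the tested genes of the chemokine set and of 7 pathway lists (y axis), 1 point per gene, in red or blue where the edgeR adjusted p was under 0.05 and in grey otherwise. NF-kB genes have 12 red points and 0 blue, AP-1 and C/EBP factors 0 red and 3 blue, and the red chemokine points reach 0.92.

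The genes whose profile over the 6 libraries was most like that of CXCL8 were found by the root-mean-square distance between log2 CPM values, each centred on its own mean, over 11304 other genes averaging 5 CPM or more. They were SLC16A9, a carnitine transporter (distance 0.0583), HSDL2, a peroxisomal dehydrogenase-like protein (0.0801), GPR119, a lipid-sensing receptor (0.0802), G0S2, an inhibitor of fat breakdown (0.0835), and RGS16, a regulator of G protein signalling (0.086), where the median distance was 0.438. Among the chemokines CXCL1 was at 0.088, CXCL6 at 0.0909 and CXCL3 at 0.101 from CXCL8, CCL20 at 0.275, CXCL5 at 0.286, CXCL16 at 0.363, CXCL2 at 0.369 and CXCL10 at 0.875. HSDL2 averaged 103.9 ± 2.59 CPM in siSOWAHA and 63.7 ± 6.13 CPM in siNC cells, and G0S2 7.57 ± 0.238 and 4.47 ± 0.402 CPM. Such a distance over 2 groups of 3 libraries mostly reflects a difference of like size between the groups.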

How the data were processed

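The submitters' processing notes name cutadapt 1.9, FastQC and the GRCh38 build. Neither the aligner nor the counting program, strand setting or annotation is stated there. Raw counts for 39554 Entrez gene IDs and FPKM values for 24901 genes were deposited by the authors, and counts of the shared genes were the same in both tables. Symbols came from RefSeq by gene ID (95.9% of IDs) or from the deposited FPKM table, which lists 9 of the 10 chemokines. Depths are given above as ranges, and intervals and limits cover counting error only.

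The edgeR 4.0.16 package under R 4.3.3 tested the counts (low counts removed by filterByExpr, TMM, robust quasi-likelihood F test, two-sided, Benjamini-Hochberg over 17693 genes), with the SE as the log2 fold change over the square root of F. The test was checked on simulated data. Same-group libraries differed by more than counting error (chi-square per degree of freedom 7.82 to 14.0), which does not show that they came from separate cultures. FPKM values served for levels and were tested as log2(FPKM + 1) with limma 3.58.1 as an alternative. DESeq2 1.42.0, other scalings, filters and thresholds, the replicate block and each left-out library were the other alternatives. Named genes were all 10 chemokines, up to 4 called and 2 abundant uncalled genes per list, and the 5 genes nearest to CXCL8. The genes and lists were chosen with earlier results of these data known. Sequences were searched in Python 3.11.15, in RefSeq promoters and GENCODE 29 transcripts. No protein sequences were used here.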

Additional observations from a re-analysis of the deposited data

How the results depend on the processing

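CXCL1, CXCL3, CXCL6, CXCL8 and CCL20 passed as higher, and 0 chemokines as lower, in all 18 alternatives, including the replicate block. Over the count-based alternatives their log2 fold changes were 0.85 to 0.89, 0.84 to 0.97, 0.82 to 0.87, 0.80 to 0.93 and 0.32 to 0.40 in that order. CXCL2, CXCL5, CXCL10 and CXCL16 passed in none of the alternatives in which they were tested. SOWAHA was called lower in all 18. The median of all genes moved by less than 0.1 with the scaling, but the share of calls that were higher was 54% with TMM, 46% with upper-quartile factors and 45.9% with library totals alone.

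Genes called higher numbered 1614, against 863 at a threshold of 0.01, 670 in FPKM with no filter and 1075 to 1453 with a library left out. Genes called lower numbered 1374, against 693, 753 and 871 to 1225 under the same settings. Genes of the pathway lists called higher numbered 24, against 9, 8 and 10 to 19, lowest without siSOWAHA replicate 3, and those called lower 7, against 6, 6 and 6 to 7. At 0.01 the stricter threshold itself lowers the counts. The cause of the other shifts was not tested.

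Signs that changed were of genes that did not pass. CXCR3 was at 0.193 without siNC replicate 2, 0.061 without siSOWAHA replicate 2 and 0.2182 without siSOWAHA replicate 1, in a leave-one-out range of -0.5471 to 0.2182. TNFAIP2 was at -0.0051 with upper-quartile factors, -0.0064 with library totals alone, -0.0068, -0.0072 and -0.0068 in FPKM with a pseudocount of 1, a pseudocount of 0.1 and no filter, and -0.0107 and -0.0104 without siSOWAHA replicates 3 and 1 (leave-one-out range -0.0107 to 0.0512). HNRNPD was at -0.0013, -0.0024, -0.0019, -0.0019 and -0.0019 under the same first 5 settings and -0.0028 without siNC replicate 2 (range -0.0028 to 0.0356). EXT2 was at 0.002 without siNC replicate 3 and 0.0114 without siNC replicate 1 (range -0.0289 to 0.0114). Replicate numbers showed no pairing of the libraries. Correlations of same-numbered deviations from the group means were -0.268, -0.04 and -0.013, and those of unlike numbers were -0.298 to 0.344. With 3 libraries per group such correlations cannot settle whether libraries were paired. The replicate block is therefore given here only. Under it 1416 genes were higher and 1183 lower, and 18 and 7 of the pathway lists. CXCL10 rests on 8 to 35 counts a library, the fewest of the 9 chemokines with counts.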
